A study of Mus musculus with 79 samples.

Results

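Hepatocyte identity rests on a small circuit of transcription factors, and 9 of their genes are described here in mouse liver after 4 h of low oxygen: Foxa1, Foxa2, Foxa3, Foxq1, Hhex, Hnf4a, Onecut1, Nr5a2 and Prox1. They were picked by name from the 15198 gene symbols that the 5 count tables list, with results of these data known, among them the low Foxa1 and Foxa2 values in liver at 6% oxygen. All 9 were listed in the 3 liver tables and passed the filter on low counts there. In kidney 5 were listed and 3 passed, and in lung 6 were listed and 4 passed.

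FOXA1, FOXA2 and FOXA3 are forkhead proteins that open chromatin at liver enhancers and so act as pioneer factors in liver development. HNF4A is the nuclear receptor that keeps most hepatocyte genes active, and it works in a cross-regulating network with ONECUT1 (also called HNF6), NR5A2 (LRH-1) and the homeobox proteins HHEX and PROX1. FOXQ1 is a forkhead protein of another branch of the family, first known for its part in hair formation.

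The mice breathed 6% oxygen or synthetic air with 21% oxygen for 4 h in sealed-top cages and were killed directly afterwards, all at 3 months of age and on a C57BL/6 background. Each exposure ran from zeitgeber time (ZT, hours after lights on) 4 to 8 or from ZT16 to 20 in a 12 h light and 12 h dark cycle (LD), with liver, kidney and lung taken from each of 16 wild-type (WT) mice. Liver was also taken after 2 days in constant darkness (DD) from Per1,2 double knockout (KO) and WT mice at circadian time (CT) 4 to 8 and 16 to 20. Per1 and Per2 encode repressors of the circadian clock. Each group held 4 mice, except 3 for KO liver at CT16-20 and 6% oxygen, so that the groups are 6% and 21% oxygen in each window for WT liver, kidney and lung in LD, KO liver in DD and WT liver in DD.

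Values are in CPM, a gene's counts over the library total (in M) scaled by the trimmed mean of M-values (TMM), and fold changes and their standard errors come from edgeR's quasi-likelihood fit over all genes of a table. The 79 libraries held 1.44 to 6.74 M counts (M for mega), 1.44 to 3.77 M in DD liver of KO mice, 1.65 to 2.97 M in that of WT mice and 3.01 to 6.74 M in LD liver. In KO liver at CT16-20 they held 2.80 to 3.77 M at 6% oxygen and 1.44 to 2.02 M in air, so depth and oxygen went together there. A gene is called at a Benjamini-Hochberg adjusted p under 0.05 over all genes tested. Whether groups overlap was read only for the members, a ratio of them and sums of markers, not over all genes. A lack of overlap thus describes the values, and how common it is among all genes was not counted. The difference between 6% and 21% oxygen in liver was part of how the 9 genes were chosen, so it is given below as a description, without p-values. Liver tests of a change in the oxygen effect between windows or genotypes contain that difference, so their p-values are descriptive too. Liver tests of time or genotype in air use the same air libraries, so their p-values are not independent of the choice. Each replicate is a separate mouse, and its library is named by the letter A to D that it carries within its group. All 8 hepatocyte markers (Alb, Apoa1, Ttr, Cps1, Serpina1a, Fgb, Ahsg and Cyp2e1) were counted in liver, and in bulk tissue fewer cells of a type and less RNA per cell cannot be told apart.

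Foxa1 and Foxa2, the pioneer factors, were lower at 6% oxygen than in air in all 6 liver comparisons, and in none of the 6 did the groups overlap. In LD liver at ZT4-8, Foxa1 had 3.27, 5.72, 4.34 and 2.81 CPM at 6% oxygen, against 20.6, 20.4, 23.8 and 11.7 CPM in air. At ZT16-20 it had 6.48, 3.19, 4.64 and 6.94 CPM at 6% oxygen, against 24.7, 34.4, 11.2 and 26.0 CPM in air. Every mouse at 6% oxygen was thus below every mouse in air of its window, with log2 fold changes of -2.26 ± 0.35 and -2.15 ± 0.32 (SE). In DD, WT liver at CT4-8 had 2.33, 0.583, 2.07 and 3.78 CPM at 6% oxygen, against 15.5, 19.9, 12.6 and 20.4 CPM in air, a log2 fold change of -2.90 ± 0.38 that was the lowest of the 6. These low values rest on 1 to 8 counts per library, so the counting error is large. At CT16-20 in WT liver Foxa1 had 6.65, 8.11, 5.41 and 4.06 CPM at 6% oxygen, against 32.6, 14.7, 23.1 and 16.8 CPM in air (-1.81 ± 0.30). In KO liver the log2 differences were -1.23 ± 0.32 at CT4-8 and -1.06 ± 0.33 at CT16-20, with 2.54 to 8.93 and 3.78 to 7.22 CPM at 6% oxygen, against 10.1 to 16.6 and 9.49 to 15.3 CPM in air.

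In LD liver Foxa2 had 5.53, 13.8, 6.24 and 6.39 CPM at 6% oxygen at ZT4-8, against 39.1, 58.3, 55.0 and 27.5 CPM in air. At ZT16-20 it had 4.60, 6.11, 6.03 and 3.74 CPM at 6% oxygen, against 36.7, 57.6, 27.6 and 47.2 CPM in air, a log2 fold change of -3.03 ± 0.32. By fold change that was the second lowest of 9451 genes tested. In WT liver in DD Foxa2 had 15.8, 14.6, 9.29 and 13.7 CPM at 6% oxygen at CT4-8, against 38.7, 58.1, 29.3 and 42.1 CPM in air (-1.66 ± 0.23). At CT16-20 it had 8.73, 6.08, 6.65 and 5.07 CPM at 6% oxygen, against 47.9, 38.0, 35.4 and 33.1 CPM in air (-2.51 ± 0.24). KO liver had the same order of groups, with 8.93, 8.20, 7.19 and 6.51 CPM at 6% oxygen at CT4-8, against 22.3, 38.0, 35.2 and 30.4 CPM in air (-2.01 ± 0.28). At CT16-20 the 3 KO libraries at 6% oxygen had 18.1, 8.32 and 6.18 CPM, against 33.0, 41.1, 28.9 and 35.8 CPM in air (-1.65 ± 0.27). In that window the summed hepatocyte markers were also lower at 6% oxygen, 75536 to 84737 CPM, against 98519.8 to 126339 CPM in air, and their part in the KO results at CT16-20 was not tested.

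**Figure D1:**
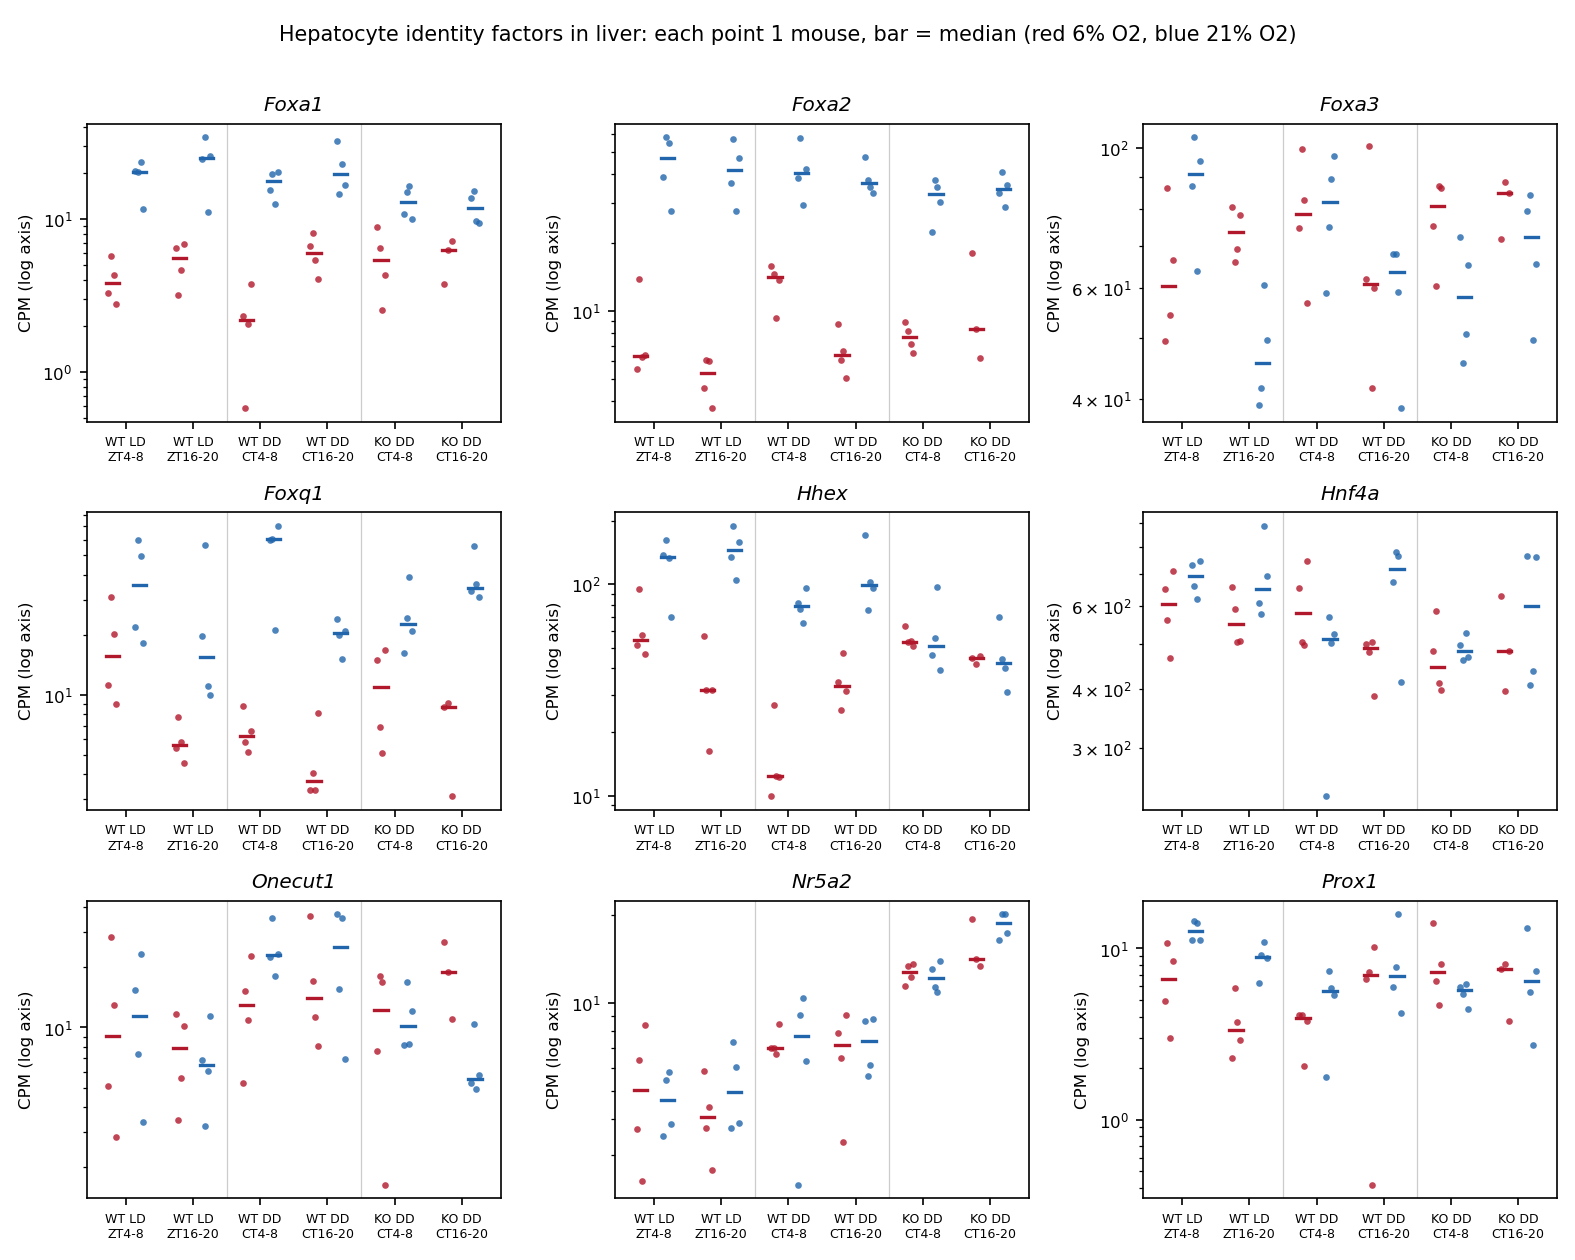
Level of each of the 9 factors in liver, in CPM on a log axis, with 1 point per mouse, a bar at the group median, 6% oxygen in red left of 21% oxygen in blue, for WT mice in LD, WT mice in DD and Per1,2 KO mice in DD. Foxa1 and Foxa2 are lower at 6% oxygen without overlap in all 6 pairs, Hhex is lower without overlap in 3 pairs of WT mice and overlaps in both KO pairs, and Hnf4a overlaps in every pair.

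Within a library the log2 ratio of Foxa2 to Foxa1 counts (with 0.5 added to each) needs no scaling. In WT liver at CT4-8 it averaged 2.63 ± 1.03 at 6% oxygen and 1.27 ± 0.21 in air (SD, n = 4 each). At CT16-20 it averaged 0.14 ± 0.37 at 6% oxygen and 0.87 ± 0.37 in air. In WT liver in DD the ratio was thus higher at 6% oxygen in the early window and lower in the late one, without overlap in either. The early ratio at 6% oxygen rests on 1 to 8 Foxa1 counts per library, with library B at 4.09 and the others at 1.80 to 2.61. In KO liver it was lower at 6% oxygen in both windows, with overlap in each, at 0.58 ± 0.61 at 6% oxygen and 1.24 ± 0.25 in air at CT4-8, and 0.80 ± 1.27 (n = 3) at 6% oxygen and 1.51 ± 0.28 in air at CT16-20. In LD liver it averaged 0.91 ± 0.35 at 6% oxygen and 1.21 ± 0.24 in air at ZT4-8, and -0.02 ± 0.81 at 6% oxygen and 0.86 ± 0.31 in air at ZT16-20, again with overlap in each. The ratio groups thus stood apart in 2 of the 6 liver comparisons. The difference between windows in the oxygen effect did not pass for either gene alone, at 1.09 ± 0.51 log2 for Foxa1 (adjusted p = 0.316) and -0.85 ± 0.34 for Foxa2 (adjusted p = 0.222) in WT liver in DD.

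The promoters of Foxa1, Foxa2 and Hhex are shown, 3 genes lower at 6% oxygen in WT liver (Foxq1, also lower there, has no promoter in the set used). They run from 250 bases before the start to 50 after it, from RefSeq on GRCm38.p6, 5′ to 3′ on the gene's strand, and capitals mark the hypoxia-inducible factor core, searched as ACGTG and GCGTG on both strands. Foxa2 has 3 annotated starts and the most upstream is shown.
Foxa1, chr12:57546062-57546361, minus strand: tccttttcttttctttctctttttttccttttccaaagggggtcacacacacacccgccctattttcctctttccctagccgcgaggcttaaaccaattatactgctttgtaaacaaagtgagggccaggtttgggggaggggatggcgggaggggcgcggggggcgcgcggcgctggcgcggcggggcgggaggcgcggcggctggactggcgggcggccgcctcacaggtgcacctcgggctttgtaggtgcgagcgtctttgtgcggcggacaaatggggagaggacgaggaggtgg
Foxa2, chr2:148046920-148047219, minus strand: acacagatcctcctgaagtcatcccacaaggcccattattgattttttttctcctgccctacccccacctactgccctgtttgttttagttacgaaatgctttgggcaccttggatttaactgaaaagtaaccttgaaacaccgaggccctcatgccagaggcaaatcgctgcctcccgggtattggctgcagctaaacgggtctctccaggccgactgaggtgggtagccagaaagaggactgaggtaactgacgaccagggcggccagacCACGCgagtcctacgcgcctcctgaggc
Hhex, chr19:37434591-37434890, plus strand: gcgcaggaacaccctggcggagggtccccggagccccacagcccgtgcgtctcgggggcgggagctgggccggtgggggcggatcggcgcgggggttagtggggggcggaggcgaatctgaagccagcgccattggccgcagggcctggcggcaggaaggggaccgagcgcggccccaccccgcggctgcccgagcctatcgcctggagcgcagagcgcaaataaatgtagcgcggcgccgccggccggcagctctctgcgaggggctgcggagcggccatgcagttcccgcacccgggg
The core was found once in each of the 3 Foxa2 promoters and nowhere in those of Foxa1 and Hhex. Among all 32851 promoters of the same length, 43.8% hold at least 1 of the 2 spellings. A forkhead core, TGTTTAC on either strand, was found once in the Foxa1 promoter and in 3.65% of all promoters. Of the 9 members 8 had a promoter in the table, and of these 4 held the hypoxia core in at least 1 promoter (Foxa2, Foxa3, Onecut1 and Nr5a2). These matches describe letters, not binding. On GRCm38 (GENCODE vM21) the FOXA genes lie apart, Foxa1 at chr12:57540628-57546916 (minus), Foxa2 at chr2:148042877-148046969 (minus) and Foxa3 at chr7:19013284-19023538 (minus). The other genes lower at 6% oxygen are Foxq1 at chr13:31556134-31560976 (plus), Hhex at chr19:37434810-37440731 (plus) and Prox1 at chr1:190118035-190170714 (minus). The remaining 3 are Hnf4a at chr2:163506808-163572910 (plus), Nr5a2 at chr1:136842571-136960448 (minus) and Onecut1 at chr9:74861921-74891781 (plus); plus and minus give the strand.

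Foxa3, the third gene of the FOXA family, was not lower at 6% oxygen without overlap in any liver comparison. In LD liver at ZT4-8 it had 49.3, 86.4, 54.3 and 66.4 CPM at 6% oxygen, against 86.9, 104, 63.7 and 95.2 CPM in air, and the groups overlapped. At ZT16-20 it had 80.7, 65.8, 69.1 and 78.2 CPM at 6% oxygen, against 39.0, 41.6, 60.6 and 49.6 CPM in air, with every mouse at 6% oxygen above every mouse in air. The log2 differences were -0.46 ± 0.18 and 0.62 ± 0.18. The change of the oxygen effect between windows holds the oxygen differences used in the choice, so its p is descriptive. It was 1.07 ± 0.25 log2 (ZT16-20 minus ZT4-8) and passed (edgeR adjusted p = 0.0207), where 2.06% of 9451 genes did. It no longer passed when ZT4-8 air library B, ZT4-8 6% library C, or ZT16-20 air library A or B was left out (adjusted p = 0.0530 to 0.0567), and the ZT16-20 difference was not called without air library A or B of that window. In air itself Foxa3 was lower at ZT16-20, 47.7 ± 9.73 CPM, against 87.4 ± 17.3 CPM at ZT4-8 (SD, n = 4 each), a log2 fold change of -0.87 ± 0.18 (adjusted p = 0.00452) without overlap. In DD Foxa3 differed between oxygen groups by -0.04 ± 0.24 and 0.18 ± 0.24 log2 in WT liver and by 0.40 ± 0.18 and 0.23 ± 0.19 log2 in KO liver at CT4-8 and CT16-20, with overlap in all 4 pairs.

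Hhex encodes a homeobox protein needed for the liver bud. In LD liver at ZT4-8 it had 51.8, 95.2, 57.5 and 47.0 CPM at 6% oxygen, against 137, 162, 133 and 70.2 CPM in air, where 1 mouse at 6% oxygen was above the lowest in air. At ZT16-20 it had 56.9, 31.6, 16.2 and 31.5 CPM at 6% oxygen, against 134, 189, 105 and 158 CPM in air (-2.10 ± 0.36), without overlap. In WT liver in DD it had 9.92, 26.8, 12.4 and 12.3 CPM at 6% oxygen at CT4-8, against 81.5, 76.7, 65.4 and 96.6 CPM in air (-2.39 ± 0.29). At CT16-20 it had 34.5, 25.6, 47.4 and 31.5 CPM at 6% oxygen, against 172, 75.5, 103 and 96.4 CPM in air (-1.68 ± 0.26). Every WT mouse in DD at 6% oxygen was below every WT mouse in air of its window. In KO liver the groups overlapped, with 63.4, 53.5, 53.7 and 51.0 CPM at 6% oxygen at CT4-8, against 46.2, 55.9, 97.4 and 39.2 CPM in air. At CT16-20 KO liver had 44.8, 42.1 and 45.7 CPM at 6% oxygen, against 70.0, 44.5, 40.3 and 31.1 CPM in air. The KO differences were -0.11 ± 0.24 and -0.06 ± 0.27 log2.

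Foxq1 was lower at 6% oxygen in all 6 liver comparisons, without overlap in 4. In WT liver in DD it had 8.76, 5.83, 5.16 and 6.62 CPM at 6% oxygen at CT4-8, against 60.1, 60.3, 21.2 and 70.5 CPM in air, a log2 fold change of -3.01 ± 0.33 that was the second lowest of 8507 genes tested. At CT16-20 it had 3.33, 4.06, 3.33 and 8.12 CPM at 6% oxygen, against 23.9, 19.9, 15.2 and 21.0 CPM in air (-2.10 ± 0.36). In KO liver at CT16-20 it had 8.64, 9.08 and 3.09 CPM at 6% oxygen, against 33.0, 55.7, 35.9 and 31.1 CPM in air (-2.43 ± 0.41), and at CT4-8 the groups overlapped (-1.23 ± 0.38). In LD liver at ZT4-8 it had 11.3, 30.9, 20.1 and 8.94 CPM at 6% oxygen, against 21.9, 60.0, 49.4 and 18.1 CPM in air (-1.09 ± 0.59). At ZT16-20 it had 5.44, 7.70, 5.80 and 4.54 CPM at 6% oxygen, against 19.8, 56.3, 11.1 and 9.97 CPM in air (-2.03 ± 0.67). The LD mice in air spread widely. Exons of a protein-coding gene on the opposite strand, A530084C06Rik (GENCODE vM21, chr13:31556134-31559333), overlap those of Foxq1, which runs on to 31560976. The strand setting of the counting is not given in the sources used here, so reads from the shared stretch cannot be told apart. A530084C06Rik itself is listed in none of the 5 tables.

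Prox1, a homeobox gene of hepatocytes and lymphatic vessels, was counted at low levels. In LD liver it had 4.91, 10.8, 2.99 and 8.43 CPM at 6% oxygen at ZT4-8, against 11.2, 14.6, 14.0 and 11.2 CPM in air (-0.94 ± 0.30). At ZT16-20 it had 2.30, 5.84, 3.71 and 2.94 CPM at 6% oxygen, against 6.31, 9.10, 10.9 and 8.75 CPM in air (-1.28 ± 0.33). Both LD windows were without overlap, and in DD the groups overlapped in all 4 pairs, with log2 differences between -0.59 ± 0.60 (WT, CT4-8) and 0.58 ± 0.41 (KO, CT4-8). An antisense transcript, Prox1os, overlaps its exons.

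Hnf4a, Nr5a2 and Onecut1 were called in none of the 6 liver oxygen comparisons. Hnf4a was called lower in WT DD liver at CT16-20 when 1 of the 16 libraries was left out. Onecut1 was called higher in KO liver at CT16-20 when 1 of the 15 was left out. Hnf4a ranged from 467 to 713 CPM at 6% oxygen at ZT4-8, against 621 to 748 CPM in air, and from 504 to 658 CPM at 6% oxygen at ZT16-20, against 578 to 887 CPM in air. Its log2 differences in the 6 comparisons ran between -0.50 ± 0.23 (WT in DD, CT16-20) and 0.39 ± 0.23 (WT in DD, CT4-8), with overlap in each. Nr5a2, the receptor that drives bile acid synthesis genes, differed by -0.33 ± 0.35 (LD, ZT16-20) to 0.17 ± 0.35 (LD, ZT4-8) log2, again with overlap in each. Onecut1 varied widely within a group, as in LD liver at ZT4-8 with 5.12, 28.2, 13.0 and 2.81 CPM at 6% oxygen, against 15.4, 7.39, 23.3 and 3.38 CPM in air. Its oxygen groups stood apart in 1 comparison, KO liver at CT16-20, with 26.7, 18.9 and 11.0 CPM at 6% oxygen, against 5.29, 10.4, 4.90 and 5.80 CPM in air (1.55 ± 0.51). A long noncoding RNA gene, Gm20649, shares exons with Onecut1 on the same strand, and such reads can be split or dropped in counting.

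**Figure D2:**
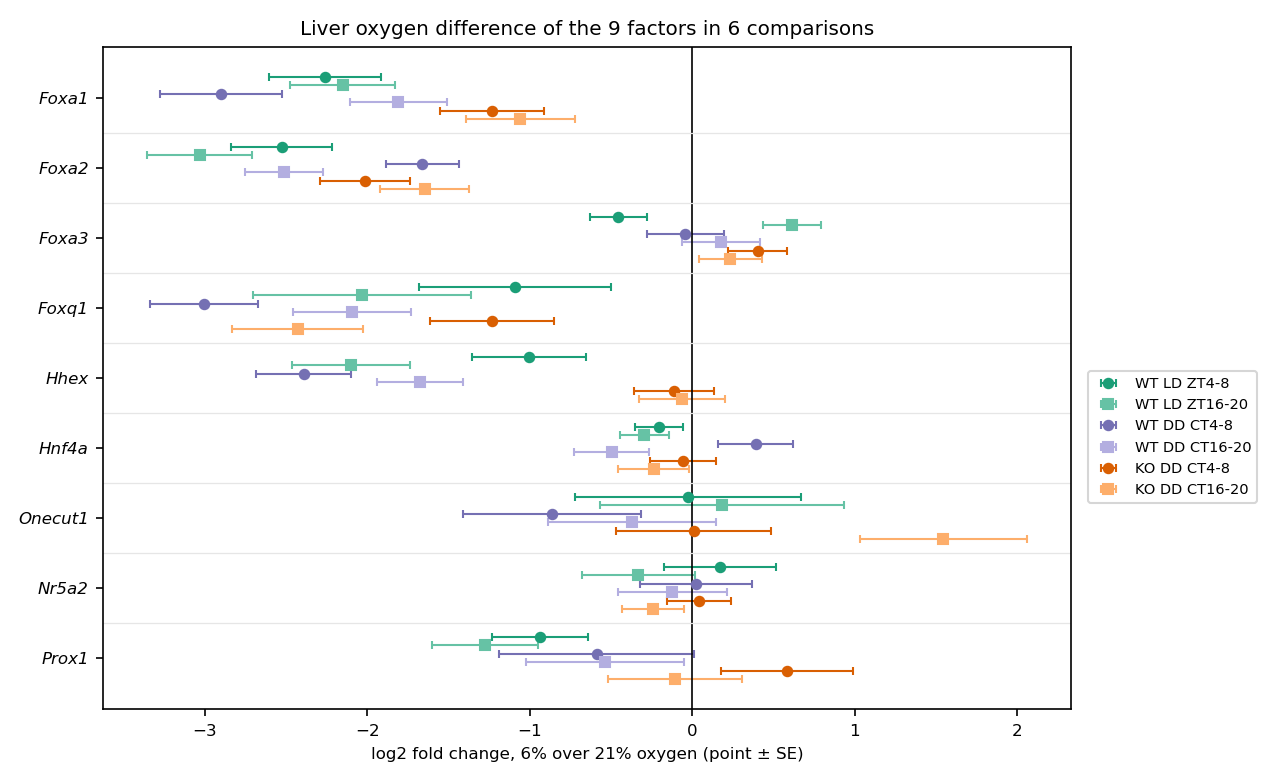
Log2 fold change of 6% over 21% oxygen (x axis, point and SE) for the 9 factors (rows) in 6 liver comparisons (colours). Foxa1, Foxa2 and Foxq1 lie left of 0 in all 6, Hhex lies left of 0 in 4 comparisons of WT mice and near 0 in both of KO mice, and Hnf4a, Nr5a2 and Foxa3 lie on both sides.

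Of the 9 members, 3 were called lower at 6% oxygen in LD liver at ZT4-8 (Foxa1, Foxa2 and Prox1) and 0 higher, where 4.21% and 5.43% of 9451 genes were. At ZT16-20, 5 were called lower (Foxa1, Foxa2, Foxq1, Hhex and Prox1) and 1 higher (Foxa3), where 10.3% and 9.98% of genes were. In WT liver in DD the same 4 (Foxa1, Foxa2, Foxq1 and Hhex) were called lower in both windows and 0 higher. There 6.07% of 8507 genes were called lower and 5.7% higher at CT4-8, and 4.55% and 5.28% at CT16-20. In KO liver 2 were called lower in each window, Foxa1 and Foxa2 at CT4-8 and Foxa2 and Foxq1 at CT16-20, and 0 higher. There 2.76% of 8520 genes were called lower and 2.83% higher at CT4-8, and 2.11% and 2.39% at CT16-20. The choice of the members used these contrasts, so the counts describe them and nothing is read from the excess. The ZT4-8 count was 5 without 6% library B, which added Foxa3 and Hhex. Prox1 at ZT4-8 was not called when any 1 of 10 of the 16 LD libraries was left out, nor Foxq1 at ZT16-20 for any 1 of 11, among them ZT16-20 air library B, without which its log2 difference was -1.19. In KO liver at CT4-8 Foxa1 was not called without air library B or C or 6% library C or D.

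Summed markers of 9 cell types overlapped between oxygen groups in 48 of 54 pairs of list and liver window. Besides the hepatocyte markers in KO liver at CT16-20, the 8 listed of 9 cholangiocyte and progenitor markers were at 72.1 to 93.4 CPM at 6% oxygen, against 94.3 to 119 CPM in air, in LD liver at ZT16-20. Neutrophil markers were higher at CT4-8, 14.7 to 82.5 CPM at 6% oxygen against 3.17 to 11.9 CPM in air in KO liver (5 of 8 listed) and 3.31 to 12.3 CPM at 6% oxygen against 0 to 1.81 CPM in air in WT liver (2 of 8 listed). In WT DD liver at CT16-20, kidney tubule markers (2 of 8 listed) were at 679 to 795 CPM at 6% oxygen against 900.0 to 1034 CPM in air, and red blood cell markers (1 of 5 listed) at 199.6 to 208 CPM at 6% oxygen against 122 to 190.1 CPM in air. Their part in the members' values was not tested. Hepatocyte markers overlapped in the other 5 windows, and markers of liver endothelial cells, which also express Hhex, overlapped in all 6.

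Time of day in air was not itself part of the choice and was tested. In liver it shares its air libraries with the oxygen differences used in the choice, so its p-values there are not independent of it. In LD liver 1 of the 9 members was called, Foxa3 as given above, where 5.91% of 9451 genes were. In WT liver in DD 1 was called, where 3.66% of genes were: Foxq1 fell to 23.9, 19.9, 15.2 and 21.0 CPM at CT16-20, against 60.1, 60.3, 21.2 and 70.5 CPM at CT4-8. Its log2 fold change was -1.42 ± 0.28 (edgeR adjusted p = 0.00534), with 1 CT4-8 mouse inside the range of CT16-20. Foxa1 and Foxa2 differed between windows in air by 0.33 ± 0.28 and -0.09 ± 0.26 log2 in LD and by 0.32 ± 0.26 and -0.13 ± 0.20 in DD, with adjusted p between 0.538 and 0.892. In KO liver edgeR called 0 of 9, where 0.0235% of 8520 genes were called, and 1 member had an unadjusted p under 0.05 (Nr5a2, 0.60 ± 0.19). DESeq2 also called 0. Foxq1 in KO liver was at 33.0, 55.7, 35.9 and 31.1 CPM at CT16-20, against 16.3, 24.4, 38.8 and 20.9 CPM at CT4-8 (0.61 ± 0.34, adjusted p = 0.676). The difference between genotypes in this time effect, a test added after the data were seen, was 2.03 ± 0.47 log2 for Foxq1 (KO minus WT, adjusted p = 0.0242), where 1.09% of 9011 genes were called. It missed the threshold without WT air library D at CT4-8 or C at CT16-20, or KO air library A or D at CT4-8 or B at CT16-20 (adjusted p = 0.0514 to 0.0746). For the change of the oxygen effect between windows, edgeR and DESeq2 each called 0 of 9 members in WT and in KO liver in DD, with 3 and 2 members at an unadjusted p under 0.05, where 1.62% and 0.0117% of genes were called by edgeR.

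Genotype was compared in 1 fit over both DD tables. The 2 targeted genes were still counted in the libraries labelled KO. In air at CT4-8 Per1 was at 20.0 to 35.6 CPM in KO liver, against 16.1 to 38.4 CPM in WT liver, and Per2 at 4.88 to 11.3 CPM in KO liver, against 5.30 to 9.95 CPM in WT liver. At 6% oxygen at CT4-8 Per1 was at 15.0 to 21.3 CPM in KO liver, against 45.3 to 84.7 CPM in WT liver. Per2 was there at 19.1 to 31.2 CPM in KO liver, against 2.94 to 10.8 CPM in WT liver. At CT16-20 and 6% oxygen Per1 was again lower in KO liver without overlap, while Per2 overlapped. In air at CT16-20 both genes overlapped. Which part of each gene is deleted is not given in the sources used here, so these counts do not check the labels.

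Hhex was lower in KO than in WT liver in air at CT16-20, at 70.4, 44.8, 40.4 and 31.4 CPM in KO, against 171, 75.6, 102 and 98.1 CPM in WT, without overlap. The log2 fold change was -1.26 ± 0.27 (edgeR adjusted p = 0.00918). Nr5a2 was higher in KO, at 16.6, 20.3, 20.2 and 17.6 CPM in KO, against 8.67, 5.62, 6.06 and 9.0 CPM in WT, with every KO mouse above every WT mouse (1.36 ± 0.26, adjusted p = 0.00215). These were the 2 of 9 members called, where 2% of 9011 genes were. By edgeR 5 members had an unadjusted p under 0.05 there (Foxa1, Foxq1, Hhex, Onecut1 and Nr5a2). Of these, Foxq1 was also higher in KO without overlap, at 31.4 to 56.0 CPM, against 15.0 to 23.8 CPM in WT. A fit with library letters as a replicate block called neither Hhex nor Nr5a2 (adjusted p = 0.177 and 0.0961). Its letter terms are separate for each genotype, so it contrasts the genotypes at letter A only and cannot judge these calls. Hhex also missed the threshold without WT air library A, without KO air library C and in a fit of only the libraries compared (adjusted p = 0.0546 to 0.0655). Nr5a2 (chr1:136842571-136960448) lies on the same mouse chromosome as Per2 (chr1:91415982-91459324), and Hhex lies on chromosome 19. Prox1, which was not called, is also on chromosome 1 (chr1:190118035-190170714). Any part of position in these differences was not tested. At CT4-8 in air edgeR called 0 of 9 members, where 4.51% of genes were called, with 3 at an unadjusted p under 0.05 (Foxq1, Onecut1 and Nr5a2). Onecut1 was lower in KO without overlap, at 8.20 to 16.8 CPM, against 18.1 to 34.8 CPM in WT. DESeq2 called 1 (Foxq1), and edgeR called Foxq1 without WT air library C, WT CT16-20 6% library D, KO air library C, KO 6% library C or KO CT16-20 6% library C, and Nr5a2 too without the first of these. Nr5a2 was there at 12.3 ± 1.48 CPM in KO and 6.98 ± 3.53 CPM in WT (0.77 ± 0.27, adjusted p = 0.0945), and Foxq1 at 25.1 ± 9.54 CPM in KO and 52.3 ± 21.3 CPM in WT (-1.06 ± 0.32, adjusted p = 0.0565; SD, n = 4 each). Of 8 neutrophil markers 2 were tested between genotypes, and both were called higher in KO in air at CT16-20; the 5 listed in the KO table summed to 7.38 to 107 CPM and the 2 in the WT table to 0.863 to 1.44 CPM, and their part in these differences was not tested.

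The oxygen difference of Hhex was smaller in KO than in WT liver at CT4-8. On the joint scale Hhex averaged 55.5 ± 5.57 CPM at 6% oxygen and 59.5 ± 25.6 CPM in air in KO liver, against 15.3 ± 7.69 CPM at 6% oxygen and 79.1 ± 12.4 CPM in air in WT liver (SD, n = 4 each). The interaction was 2.27 ± 0.41 log2 (KO minus WT, edgeR adjusted p = 0.00202), the only one of 9 members called, where 2.42% of 9011 genes were. It contains the WT oxygen difference, which was part of the choice of the members, so its p is descriptive. The interaction stayed called under all alternatives tried, which included leaving out each DD library. All 4 KO mice at 6% oxygen, 51.3 to 63.7 CPM, were above all 4 WT mice at 6% oxygen, 10.0 to 26.7 CPM. Foxa1 and Foxq1 had interactions of 1.66 ± 0.53 and 1.77 ± 0.55 log2 that missed the threshold (adjusted p = 0.0882 and 0.0850). Foxq1 was called without WT air library C, KO air library C or KO 6% library C, and Foxa1 without the last of these. Foxa2 had one of -0.36 ± 0.36 (adjusted p = 0.673). At CT16-20 edgeR called 0 of 9 members, where 0.0444% of genes were called, with 3 at an unadjusted p under 0.05, and DESeq2 called 1, Hhex. Its edgeR interaction was 1.61 ± 0.40 log2 (adjusted p = 0.111), and 0.0430 without KO air library A. WT and KO livers are in separate tables, so any difference in their handling and genotype cannot be told apart in the comparisons in air. The interaction compares oxygen differences taken within each table.

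**Figure D3:**
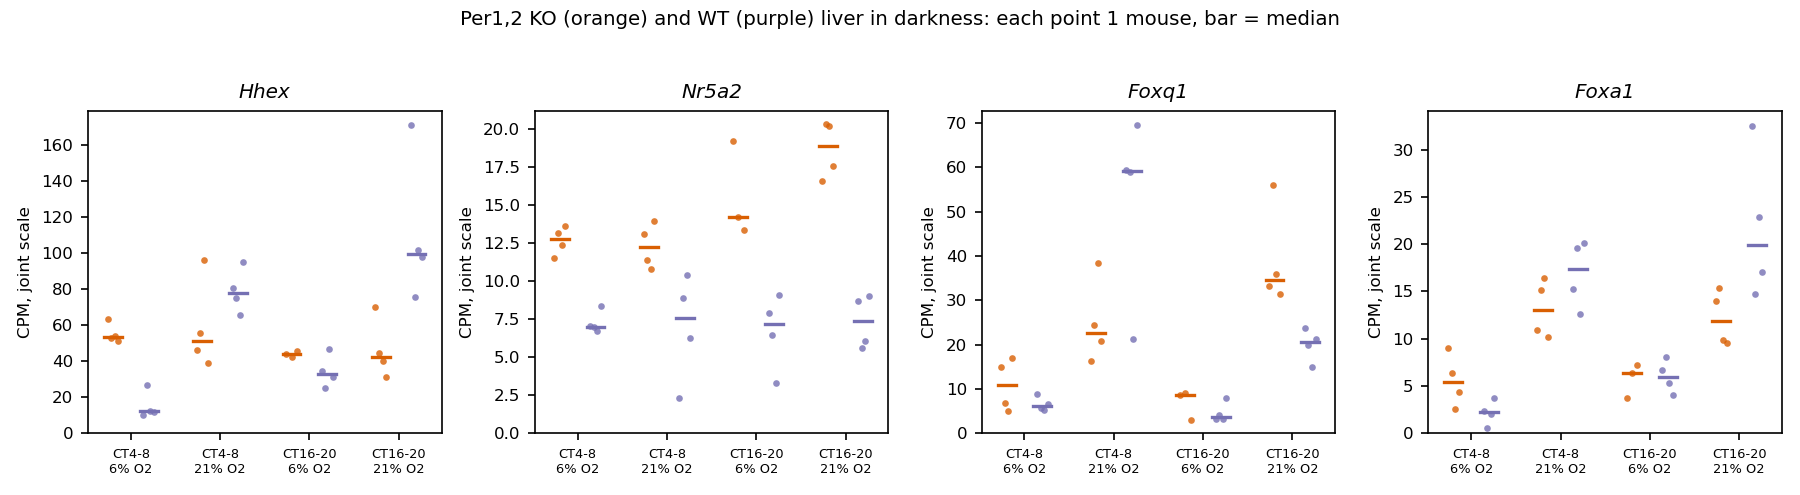
Hhex, Nr5a2, Foxq1 and Foxa1 in DD liver, in CPM scaled over both tables, with 1 point per mouse and a bar at the group median, Per1,2 KO in orange left of WT in purple, by circadian window and oxygen. At CT4-8 and 6% oxygen Hhex is at 51.3 to 63.7 CPM in KO and 10.0 to 26.7 CPM in WT, and in air at CT16-20 Nr5a2 averages 18.7 ± 1.88 CPM in KO and 7.34 ± 1.74 CPM in WT (SD).

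In lung, where FOXA1 and FOXA2 act in the airway and alveolar epithelium, the 2 genes parted. Foxa2 fell to 25.6, 26.4, 32.2 and 22.4 CPM at 6% oxygen at ZT4-8, against 56.1, 62.8, 67.3 and 65.8 CPM in air, a log2 fold change of -1.24 ± 0.14 (edgeR adjusted p = 3.22e-07). At ZT16-20 it fell to 35.5, 23.8, 30.2 and 27.7 CPM at 6% oxygen, against 62.2, 66.8, 55.3 and 65.1 CPM in air (-1.08 ± 0.14, adjusted p = 3.17e-06). The groups did not overlap in either window. Foxa1 stood at 55.1, 55.4, 55.0 and 53.6 CPM at 6% oxygen at ZT4-8, against 51.7, 52.6, 43.6 and 64.4 CPM in air, and at 64.9, 45.7, 57.1 and 55.9 CPM at 6% oxygen at ZT16-20, against 52.0, 59.1, 60.3 and 67.6 CPM in air. Its log2 differences of 0.04 ± 0.13 and -0.09 ± 0.13 were not called (adjusted p = 0.850 and 0.665), with 95% intervals of -0.23 to 0.31 and -0.37 to 0.18. The log2 ratio of Foxa2 to Foxa1 counts averaged -1.05 ± 0.20 at 6% oxygen and 0.26 ± 0.26 in air at ZT4-8, and -0.93 ± 0.06 at 6% oxygen and 0.06 ± 0.18 in air at ZT16-20 (SD, n = 4 each). Both differences gave p = 0.0286 in an exact two-sided permutation test, the smallest that 4 against 4 allows, and 0.0286 after adjustment over the 2 windows. The ratio was added after these values were seen, so its p-values are descriptive and restate the differences of the single genes. The summed markers of lung epithelium overlapped between oxygen groups, at 74486 to 86816 CPM at 6% oxygen and 73008 to 89907 CPM in air at ZT4-8, and at 75979.7 to 88352 CPM at 6% oxygen and 61889 to 94738 CPM in air at ZT16-20. Of these 8 markers 0 were called at ZT4-8, where 11.4% of genes were called lower and 11.2% higher. At ZT16-20, 1 was called lower and 0 higher, where 10.9% and 10.2% of genes were. Other marker lists moved in the same lungs. Of 9 cholangiocyte and progenitor markers 8 were tested, with 0 called lower in either window. Called higher were 2 at ZT4-8 and 1 at ZT16-20, where 11.2% and 10.2% of genes were. At ZT16-20 the 7 listed of 8 neutrophil markers summed to 244 to 417 CPM at 6% oxygen, against 53.2 to 115 CPM in air, and 5 of the 7 tested were called higher (median log2 difference 1.84), where 10.2% of genes were. At ZT4-8 the sums overlapped, at 324 to 624 CPM at 6% oxygen and 306 to 508 CPM in air, and 2 of 7 were called higher (median 0.32), where 11.2% of genes were. The 8 endothelial markers summed to 1215 to 1338 CPM at 6% oxygen at ZT4-8, against 992 to 1199.5 CPM in air, and overlapped at ZT16-20. The 4 listed of 8 kidney tubule markers stood higher at 6% oxygen without overlap in both windows. The part of these markers in the lung values of Foxa2 and Hhex was not tested.

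Hhex also fell in lung, to 19.4, 23.3, 22.2 and 23.6 CPM at 6% oxygen at ZT4-8, against 25.6, 37.5, 30.2 and 34.6 CPM in air (-0.52 ± 0.15, adjusted p = 0.0155). At ZT16-20 it fell to 26.1, 16.8, 18.0 and 19.5 CPM at 6% oxygen, against 32.2, 33.1, 28.4 and 34.8 CPM in air (-0.67 ± 0.16, adjusted p = 0.00346). The ZT4-8 call was lost without air library B or D (adjusted p = 0.0650 and 0.0561). So 2 of the 4 members tested in lung were called lower in each window, where 11.4% and 10.9% of 12150 genes were. Foxq1 in lung differed by 0.33 ± 0.20 and 0.07 ± 0.20 log2 (adjusted p = 0.247 and 0.852). Foxa3 and Hnf4a were listed in lung at 0 to 7 and 2 to 6 counts in air at ZT4-8 and did not pass the filter.

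In kidney edgeR and DESeq2 called 0 of the 3 members tested in either window, where 5.28% and 6.9% of 10878 genes were called by edgeR, and 1 had an unadjusted p under 0.05, at ZT16-20. That was Hhex, at 1.70, 3.79, 1.81 and 3.64 CPM at 6% oxygen, against 5.02, 6.44, 6.90 and 3.44 CPM in air (-0.98 ± 0.34, adjusted p = 0.0881), which rests on 5 to 12 counts per library at 6% oxygen and 13 to 27 in air. Hnf4a, which is also a factor of the kidney's proximal tubule, stood at 1207, 1032, 1058 and 1085 CPM at 6% oxygen at ZT16-20, against 813, 1009, 852 and 1068 CPM in air (0.23 ± 0.13, adjusted p = 0.313). At ZT4-8 it differed by 0.01 ± 0.13 log2, with a 95% interval of -0.25 to 0.28. For time of day in air and for the change of the oxygen effect between windows, edgeR and DESeq2 called 0 of the 3 members in kidney and 0 of the 4 in lung, and 0 had an unadjusted p under 0.05. By edgeR 1.09% and 0.368% of genes were called in kidney and 0.979% and 0.255% in lung. The liver, kidney and lung values come from the same 16 mice, and a difference between tissues in the oxygen effect was not tested.

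**Figure D4:**
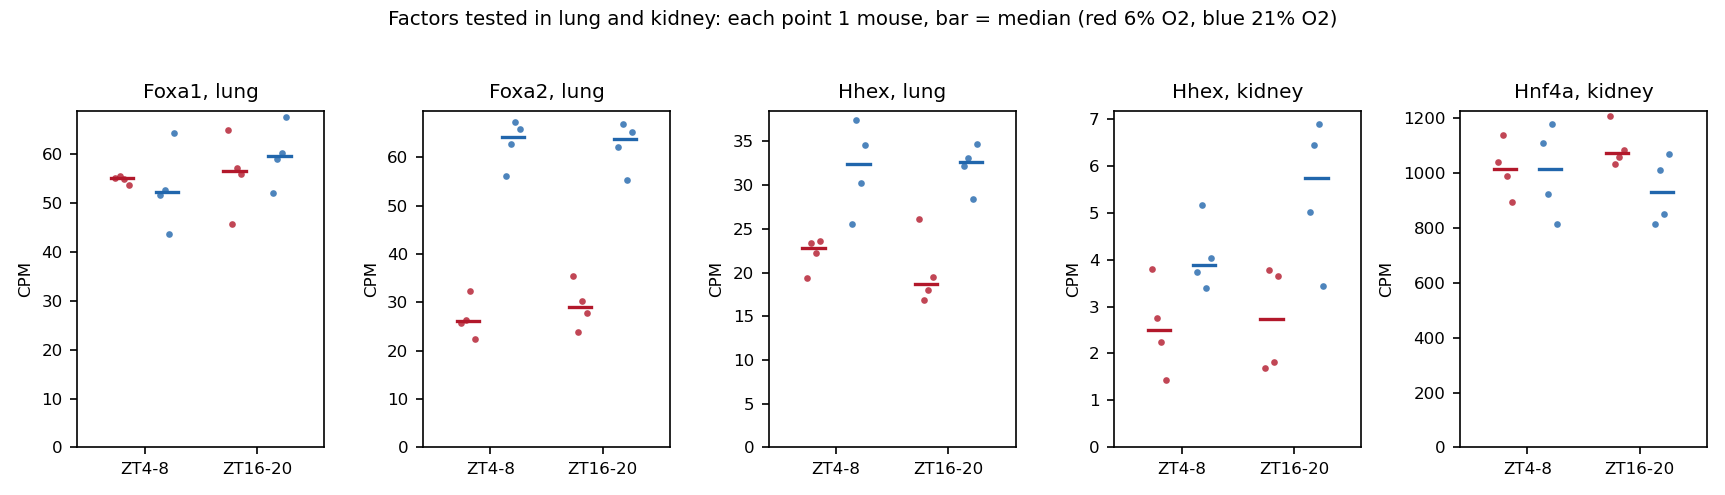
Foxa1, Foxa2 and Hhex in lung and Hhex and Hnf4a in kidney of LD mice, in CPM, with 1 point per mouse, a bar at the group median, 6% oxygen in red left of 21% oxygen in blue. In lung at ZT4-8 Foxa2 is at 22.4 to 32.2 CPM at 6% oxygen and 56.1 to 67.3 CPM in air without overlap, while Foxa1 overlaps.

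Genes around these factors were read from 3 lists chosen with earlier results known, again as a description in the liver oxygen comparisons. Of 32 other liver-enriched factors and nuclear receptors, 29 or 31 were tested, and 2 to 5 were called higher and 0 to 4 lower in a comparison. Of all genes tested, 2.39% to 9.98% were called higher and 2.11% to 10.3% lower. The list's median log2 difference lay between -0.18 (WT, CT4-8) and 0.12 (KO, CT4-8), where that of all genes was -0.02 and 0.01. Cebpd and Cebpb, which encode C/EBP factors of the acute phase, stood highest: Cebpd differed by 2.12 ± 0.51 to 4.04 ± 0.63 log2 over the 6 comparisons and was called in all of them, and Cebpb was called higher in 5, with 1.63 ± 0.15 log2 in WT liver at CT4-8. Ppara, the receptor of the fasting response, was called lower in 3, with -1.48 ± 0.13 log2 at ZT4-8. Nr1i3, the xenobiotic receptor CAR, was called lower in WT liver at CT4-8 (-0.89 ± 0.22) and higher in KO liver at CT4-8 (0.93 ± 0.17) and CT16-20 (0.64 ± 0.18).

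Of 30 genes of hepatocyte function (plasma proteins, metabolic enzymes and transporters), all were tested in liver, and 0 to 4 were called higher and 0 to 3 lower in a comparison. Of all genes tested, 2.39% to 9.98% were called higher and 2.11% to 10.3% lower. The median log2 difference of the 30 genes lay between -0.27 (KO, CT16-20) and 0.09 (WT, CT4-8), where that of all genes was -0.01 and -0.02. Tat, an amino acid degrading enzyme induced by glucocorticoids, was called higher in all 4 comparisons of WT mice, with 2.09 ± 0.19 at ZT4-8, 1.43 ± 0.19 at ZT16-20, 2.65 ± 0.17 at CT4-8 and 0.53 ± 0.16 at CT16-20, and stood at -0.01 ± 0.34 and -0.29 ± 0.37 in KO liver. G6pc, the last enzyme of gluconeogenesis, was called higher at ZT4-8 (1.70 ± 0.20), in WT liver at CT4-8 (1.61 ± 0.29) and in KO liver at CT16-20 (0.99 ± 0.26). Fga, a fibrinogen chain, was called lower in the late window of LD, WT and KO liver (-2.06 ± 0.37, -1.16 ± 0.27 and -1.70 ± 0.37). Cyp7a1, the rate-limiting enzyme of bile acid synthesis, was called lower at ZT4-8 (-1.36 ± 0.25) and in KO liver at CT4-8 (-1.29 ± 0.33), and higher in KO liver at CT16-20 (2.98 ± 0.39).

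Of 20 other forkhead genes 8 or 9 were tested. They were called higher in 0 to 3 cases a comparison and lower in 0 or 1, where 2.39% to 9.98% of all genes were called higher and 2.11% to 10.3% lower. Their median log2 difference was above 0 in all 6 comparisons, from 0.12 (KO, CT16-20) to 0.56 (LD, ZT4-8), where that of all genes was -0.01 and -0.01. Foxf1, a forkhead gene of mesenchyme and vessels, was called higher in 4 comparisons (1.42 ± 0.41 at ZT16-20). Foxo1, the insulin-restrained activator of gluconeogenesis, was called higher in 3 (1.11 ± 0.17 at ZT4-8), Foxp1 in 2 (1.66 ± 0.29 at ZT4-8), and Foxk1 was called lower in 1 (-0.80 ± 0.18 at ZT16-20).

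The liver profiles most like those of Foxa1 and Foxa2 were sought among 8220 genes tested in all 3 liver tables, by the root mean square difference of group mean log2(CPM + 1) over 12 groups, each profile centred within its table. Nearest to Foxa1 were C730036E19Rik, Zfp809, 1810019D21Rik and Prickle3, at 0.30 to 0.35 log2, where the median over all genes was 0.95. Nearest to Foxa2 were 1810019D21Rik, Rsrp1, Oraov1 and Sox18, at 0.36 to 0.41, where the median was 1.11. Their own differences between 6% and 21% oxygen in the 6 comparisons ran over -2.66 to -1.86 log2 for Rsrp1, -2.17 to -1.67 for 1810019D21Rik, -1.92 to -1.26 for Zfp809 and -3.01 to -2.10 for Sox18, an endothelial factor. They ran over -1.91 to -1.25 for C730036E19Rik, -2.43 to -1.38 for Prickle3 and -2.32 to -1.27 for Oraov1. All were sought for profiles near those of Foxa1 or Foxa2, so their lower values at 6% oxygen follow from the search.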

How the data were processed

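The 5 deposited tables hold whole-number read counts per gene symbol, 1 for each of liver, kidney and lung in LD and for WT and KO liver in DD, from 79 libraries in 20 groups. Per the submitters' processing notes, the authors used bcl2fastq, cutadapt, STAR and HTSeq on mm10, with versions, annotation and strand setting not given in the sources used here. Per the labels' protocols, cDNA amounts were evened by qPCR of an actin gene and pooled libraries were amplified linearly, so differences in total RNA between samples cannot be seen.

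Each table was fitted in edgeR 4.0.16 (R 4.3.3) with its 4 groups, TMM scaling, the filter on low counts (minimum 10 per gene, 15 in total) and the robust quasi-likelihood test, and genotype in 1 fit over both DD tables, 25 comparisons in all. P-values were adjusted over all genes. Standard errors are the log2 fold change divided by the square root of F. Alternatives were RLE scaling, no filter, thinned counts, a replicate block, only the libraries compared, DESeq2 1.42.0 and each library left out in turn. The difference between genotypes in the time effect and the Foxa2 to Foxa1 ratio were added after the data were seen.

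The members and gene lists were chosen with earlier results of these data known. Every member is named, and from each list up to 4 genes called in the most liver oxygen comparisons. The fits were tested on simulated data. Within groups, 117 pairs of libraries differed by 2.31 to 31.3 times the sampling noise (chi-square per degree of freedom), so none was counted as a repeat. Promoters are RefSeq's, and gene overlaps come from GENCODE vM21 (both GRCm38).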

Additional observations from a re-analysis of the deposited data

Results flagged for a closer look

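In 6 of 127 groups of 4 libraries, 1 library stood farther from the others than Dixon's test allows at its 95% level, where chance gives about 1 in 20. Foxa2 was at 13.8 CPM in LD liver library B at ZT4-8 and 6% oxygen, where the others were at 5.53 to 6.39 CPM. Hhex was at 26.8 CPM in WT DD liver library B at CT4-8 and 6% oxygen, where the others were at 9.92 to 12.4 CPM. Foxq1 was at 8.12 CPM in WT DD liver library D at CT16-20 and 6% oxygen, where the others were at 3.33 to 4.06 CPM. Nr5a2 was at 8.51 CPM in library D of WT DD liver at CT4-8 and 6% oxygen, where the others were at 6.71 to 7.00 CPM. Prox1 was at 2.07 CPM in library C of the same group, where the others were at 3.78 to 4.09 CPM. Onecut1 was at 10.4 CPM in KO liver library B at CT16-20 in air, where the others were at 4.90 to 5.80 CPM.

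Effects differed between groups by a test of the difference itself in 3 cases. Those of oxygen contain the liver oxygen difference used in choosing the members, so they are descriptive. The oxygen effect on Foxa3 in LD liver differed by 1.07 log2 between ZT16-20 and ZT4-8. The oxygen effect on Hhex at CT4-8 differed by 2.27 log2 between KO and WT liver. The effect of time on Foxq1 in air differed by 2.03 log2 between KO and WT liver.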

How the results depend on the processing

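For 181 values of single members, 4522 alternative values were computed: 4445 kept their direction and their side of the threshold, 48 lost a call, 29 gained one and 0 changed direction with a call. The number of members called changed by more than 1.5 times in these cases. In a fit of only the libraries compared it was 1 for oxygen in KO liver at CT4-8, against 2 in the full fit. With DESeq2 it was 1 for genotype in air at CT4-8 (against 0), 2 for genotype by oxygen at CT4-8 (against 1) and 1 at CT16-20 (against 0). With 1 library left out the number ranged over 2 to 5 for oxygen in LD liver at ZT4-8, 0 to 1 for oxygen by time there, 1 to 3 for oxygen in KO liver at CT4-8, 1 to 2 for oxygen in lung at ZT4-8, 0 to 2 and 1 to 2 for genotype in air at CT4-8 and CT16-20, 1 to 3 and 0 to 1 for genotype by oxygen, and 0 to 1 for genotype by time in air. The cause was not tested.

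Library letters are shared by the groups. Deviations of libraries with the same letter correlated by -0.28 to 0.18, over 0.1 in 12 of 117 pairs and in no pair of groups for every letter, so the counts do not show that letters pair the mice. Whether a letter marks a shared cage or day is not given in the sources used here. With the replicate block, 0 members were called for genotype in air at CT16-20 (against 2), and the count of all genes called was 22 there (against 180), 161 at CT4-8 (against 406), 242 for oxygen in KO liver at CT16-20 (against 384) and 20 for oxygen by time in kidney (against 40). The letter terms are separate for each genotype, so the block counts for genotype in air contrast letter A only and cannot judge those calls.

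Other counts over all genes moved too. In fits of only the libraries compared they were 526 for oxygen in WT DD liver at CT4-8 (against 1001), 123 for time there (against 311), 9 for time in KO liver (against 2), 264 for oxygen in kidney at ZT4-8 (against 574), 50 and 77 for time in kidney and lung (against 119 in each), 96 for genotype in air at CT4-8 (against 406), 126 and 7 for genotype by oxygen at CT4-8 and CT16-20 (against 218 and 4) and 63 for genotype by time (against 98). With DESeq2 they were 32 and 26 for time and oxygen by time in KO liver (against 2 and 1), 211 and 86 in kidney (against 119 and 40), 210 and 66 in lung (against 119 and 31), 33 for genotype by oxygen at CT16-20 (against 4) and 175 for genotype by time (against 98). Thinned counts gave 3 for oxygen by time in KO liver (against 1) and 2 for genotype by oxygen at CT16-20 (against 4). Low counts limit Foxa1 at 6% oxygen and Prox1 in DD liver, and Hhex in kidney. They also limit Nr5a2 in DD liver, at 13 to 19 counts in WT and 25 to 37 in KO in air at CT16-20. In WT DD liver at CT16-20 and 6% oxygen, Foxq1 had 8 to 16 counts and Foxa2 10 to 21.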
